A study of Mus musculus with 12 samples.

Results

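The synaptic vesicle and exocytosis genes described here are those whose products sit on secretory vesicles, or dock, prime or fuse them. They were chosen by symbol alone: numbered synaptotagmins, synapsins, vesicle-associated membrane proteins (Vamp), syntaxins (Stx), syntaxin-binding proteins (Stxbp), complexins (Cplx), Rims, Sv2 proteins, Rab3 proteins and Unc13 proteins. Of 52670 symbols in the deposited tables, 67 matched, in 10 families, and 59 of them had enough counts to be tested. The other 8 hardly appeared: Cplx4, Syt6, Syt15 and Vamp9 had 0 counts in all 12 libraries, and Cplx3, Rims1, Rims4 and Syt10 had 3 to 20 counts over all 12 together. RNA came from adult mice aged 11 to 12 weeks, from epithelium of the circumvallate papilla, a taste bud-bearing structure on the posterior tongue. Every mouse had the genotype Sox2GFP, in which green fluorescent protein (GFP) reports Sox2, a transcription factor of tongue progenitors and taste cells. Cells were sorted by GFP brightness into 4 bins, Low, MedLow, HiMed and High, with 3 libraries each. Each replicate pooled 7 to 13 mice, and cells without GFP were thrown away, so every bin holds reporter-positive cells and none serves as a negative control. The labels do not say that a replicate number is the same pool in every bin, so the tests treat the libraries as unpaired. Their p-values rest on the spread between these libraries. A fit with the replicate number as a block is described near the end.

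Vesicles fuse when a SNARE on the vesicle, a Vamp, zips up with syntaxin and a Snap25-type protein on the target membrane. Syntaxin-binding proteins of the Munc18 type hold syntaxins ready, Unc13 proteins prime the vesicle, Rims and Rab3 tether it at the release site, and complexins and synaptotagmins hold fusion back until calcium arrives. Synapsins and Sv2 proteins sit on the vesicle itself. In taste buds, Type III cells form conventional synapses with nerve fibres and carry Snap25, whereas Type II cells release ATP through Calhm channels without vesicles. Other family members serve every cell, carrying cargo between Golgi, endosomes and the plasma membrane.

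Promoters of 4 members whose levels are described below are printed to show how different the start sites of these genes are. Unc13b and Stx7 had larger means in each brighter bin, Syt9 was highest in Low, and Unc13a is one of the members with a stretch of the site bound by the neuronal gene repressor Rest. The windows run from 250 bases before to 50 after the first listed start, from RefSeq on build GRCm38.p6: Unc13b at chr4:43058703-43059002 on the plus strand, Stx7 at chr10:24149039-24149338 on the plus strand, Syt9 at chr7:107370540-107370839 on the plus strand and Unc13a at chr8:71671708-71672007 on the minus strand. Capitals mark CATTGT and CTTTGT (words of the Sox motif), GGGCGG (the GC box) and TTCAGCACC (the Rest stretch) or the reverse complement of each.
Unc13b: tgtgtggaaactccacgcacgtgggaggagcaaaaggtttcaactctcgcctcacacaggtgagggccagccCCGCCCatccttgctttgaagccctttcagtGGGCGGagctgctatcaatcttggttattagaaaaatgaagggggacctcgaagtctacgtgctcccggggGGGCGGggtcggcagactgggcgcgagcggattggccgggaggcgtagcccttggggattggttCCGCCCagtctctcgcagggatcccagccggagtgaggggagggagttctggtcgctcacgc
Stx7: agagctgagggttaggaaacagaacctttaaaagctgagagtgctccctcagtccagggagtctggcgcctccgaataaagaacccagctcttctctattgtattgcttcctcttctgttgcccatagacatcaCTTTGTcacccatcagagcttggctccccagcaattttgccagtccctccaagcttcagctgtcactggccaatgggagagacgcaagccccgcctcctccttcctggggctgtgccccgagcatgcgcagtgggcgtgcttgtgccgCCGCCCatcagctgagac
Syt9: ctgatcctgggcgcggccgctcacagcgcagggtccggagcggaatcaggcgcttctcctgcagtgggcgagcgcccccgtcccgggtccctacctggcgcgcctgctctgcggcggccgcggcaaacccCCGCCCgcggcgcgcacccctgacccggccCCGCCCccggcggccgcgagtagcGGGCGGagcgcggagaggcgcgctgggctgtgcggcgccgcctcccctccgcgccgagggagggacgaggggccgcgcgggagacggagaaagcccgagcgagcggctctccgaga
Unc13a: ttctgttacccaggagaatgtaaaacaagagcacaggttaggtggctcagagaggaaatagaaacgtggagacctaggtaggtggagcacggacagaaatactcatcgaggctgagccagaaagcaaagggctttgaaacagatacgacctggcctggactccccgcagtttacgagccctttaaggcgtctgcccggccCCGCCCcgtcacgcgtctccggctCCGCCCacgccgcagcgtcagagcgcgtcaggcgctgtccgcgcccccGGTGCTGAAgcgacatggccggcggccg
The Unc13b window held 4 GC boxes, that of Syt9 3, that of Unc13a 2 and that of Stx7 1. Stx7 alone among these 4 held a Sox word, CTTTGT. Of the 67 genes, 52 had a promoter in the RefSeq table. A GC box on either strand stood in 40 of the 52 (76.9%), against 35.9% of all 27025 promoters of the same length. CATTGT stood in 9.62% of the members' windows and 12.8% of all, and CTTTGT in 11.5% of the members' windows and 18.7% of all. TTCAGCACC stood in 2 members, Unc13a and Syn1 (3.85%), against 0.359% of all promoters. In the members' windows, matches to different motifs shared letters in 0 cases, and a match is a description of the letters only.

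Libraries held 25.7 M to 55.6 M counts. Sox2 followed the sort, at 70.3 ± 6.17, 98.0 ± 1.20, 171 ± 2.64 and 373 ± 12.8 CPM (counts scaled to a common library total) in Low, MedLow, HiMed and High (mean ± SD, n = 3). Markers of taste epithelium were present in every bin: the sum of 3 taste bud keratins was 1760 to 3332 CPM in High and 353 to 497 in Low, and that of 4 basal markers was 4385 to 6990 CPM in High and 25330 to 26075 in Low. Markers of cells that also secrete or make synapses moved with the bins. Summed over 11 markers, neurons and Schwann cells gave 26.4 to 28.1 CPM in High and 54.0 to 85.9 in Low; of the 10 tested, Tubb3, Snap25, Sox10 and Nefl were lower, Rbfox3, at 0 in Low, was higher, and 5 were not called. The 5 Von Ebner gland markers gave 0.495 to 121 CPM in High and 774 to 2475 in Low, with Dmbt1 and Muc5b lower, the other 3 not called and none at 0 throughout either bin. The 6 fibroblast markers gave 2.69 to 11.0 CPM in High and 588 to 630 in Low. That sum is mostly Dcn, at 6.95 ± 4.2 CPM in High and 608 ± 20.8 in Low, the only one of the 2 tested to be called; Lum was at 0 in both bins and Pdgfrb at 0 in High. The 8 Type II markers gave 421 to 498 CPM in High and 842 to 1020 in Low, and the 8 Type III markers 135 to 266 in High and 186 to 298 in Low. The 6 leukocyte markers gave 103 to 308 CPM in High and 27.8 to 45.8 in Low. That sum is mostly Lyz2, at 172 ± 113 CPM in High and 32.7 ± 8.49 in Low, the only one of the 4 tested to be higher; Csf1r, at 0 in High, was lower, Cd68 and Ptprc were not called (Ptprc at 0.0797 ± 0.138 CPM in High and 0.291 ± 0.188 in Low), and Cd3e was at 0 in both. HiMed replicate 1 stood apart in suprabasal keratins, whose sum ran from 7294 to 22652 CPM over the HiMed libraries. The part of these cells in the results below was not tested. In such bulk libraries, fewer cells of a type and less RNA per cell cannot be told apart.

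Levels between genes were compared in TPM (transcripts scaled to a common total), which corrects for length. Of the 67 genes, 25 averaged at least 10 TPM over the 12 libraries, 19 averaged 1 to 10 and 23 less than 1. The most abundant were Stxbp2 at 145 TPM, Vamp8 at 122, Stx4a at 84.9, Rab3d at 74.2, Stx7 at 73.5, Stx5a at 70.7 and Vamp2 at 68.3. Members known from nerve terminals lay at very different levels. Besides Vamp2, Cplx2 averaged 12.8 TPM, Rab3a 12.2 and Stx1a 11.7, whereas Syt1 was at 1.95 TPM, Sv2b at 1.98, Syn3 at 1.38, Syn1 at 0.575 and Cplx1 at 0.487. The synaptotagmins were led by Syt8 at 10.1 TPM, the complexins by Cplx2 and the Unc13 genes by Unc13b at 14. No Rim reached 1 TPM on average, and Rims3 led that family at 0.510. The levels of Stx4a, Rab3a, Sv2b, Syn3 and Syn1 are uncertain, since their exons overlap other genes on the opposite strand and the strand setting of the counting is not given in the sources used here. Exons of Stx5a overlap a microRNA gene on the same strand.

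**Figure D1:**
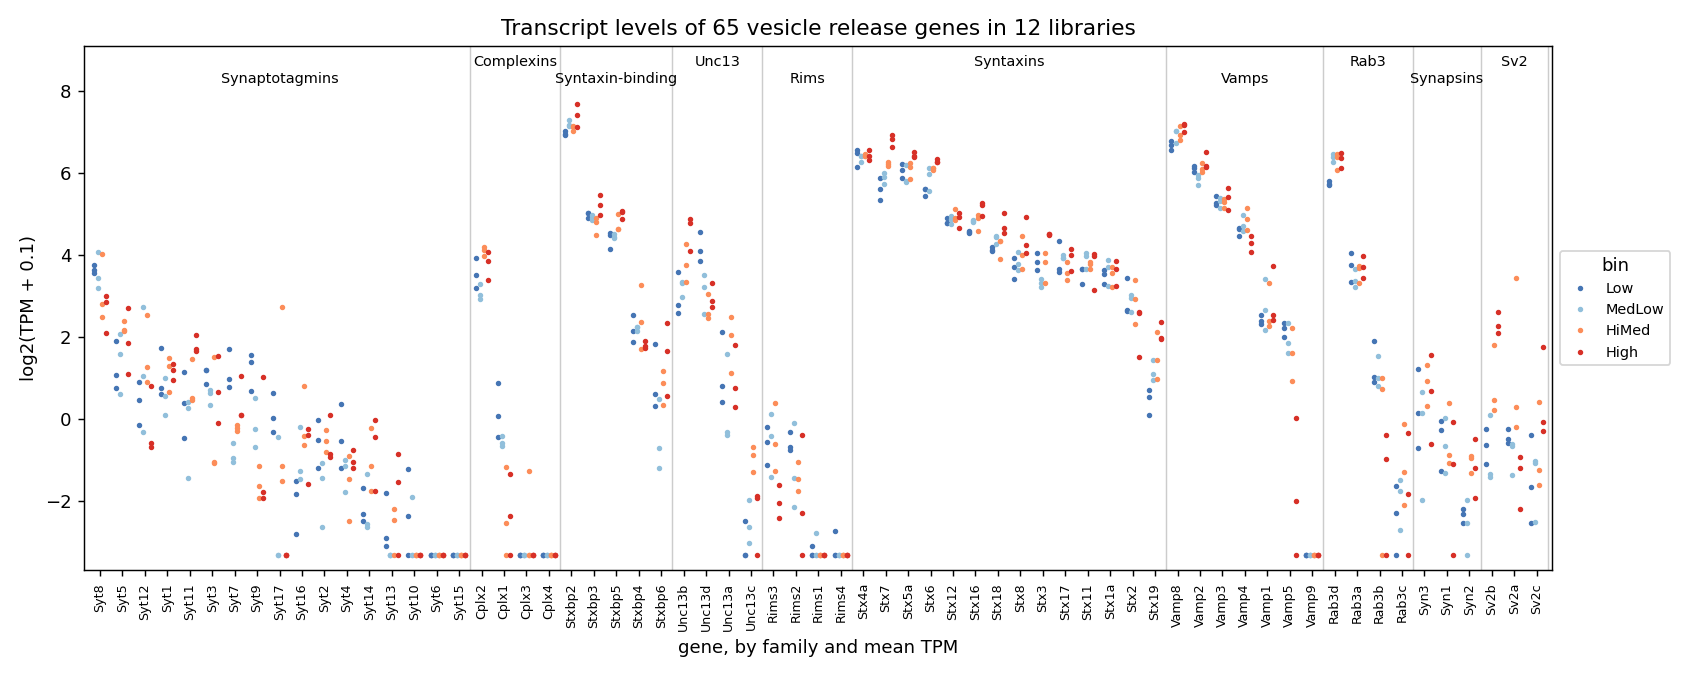
Level of 65 of the 67 genes in each of the 12 libraries, as log2(TPM + 0.1), grouped by family and ordered within a family by mean TPM. Points are libraries, coloured by bin from Low to High, and points at the bottom edge are libraries at 0. Stxbp2 and Vamp8 lie at the top at 145 and 122 TPM on average, and most synaptotagmins, synapsins, Rims and Sv2 genes lie near or under 1 TPM.

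Among the 4 bins, 26 of the 59 tested genes differed (44.1%) by the quasi-likelihood test of edgeR; every adjusted p below comes from this fit, with Benjamini-Hochberg adjustment over all 17432 genes tested. Over all genes the share was 42.0%, so the share among the vesicle genes was near the background. The largest mean of these 26 was in High for 11 genes, in Low for 8, in MedLow for 4 and in HiMed for 3. The mean grew with each brighter bin in 6 and shrank in 2. In High against Low, 23 genes were called (39.0%, against 41.2% of all genes). Of the 59, 13 were higher (22%, against 20% of all genes) and 10 lower (16.9%, against 21.2%). High and Low libraries were fully separate for 32 of the 59 (54.2%), against 52.5% of all genes. The median log2 fold change of the 59 was 0.08, against -0.01 over all genes. Counts of calls in High against Low ran from 19 to 25 when each library was left out in turn. Families did not move as blocks: among the called members of the syntaxin, Vamp, synaptotagmin and Unc13 families, some were higher in High and others lower.

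**Figure D2:**
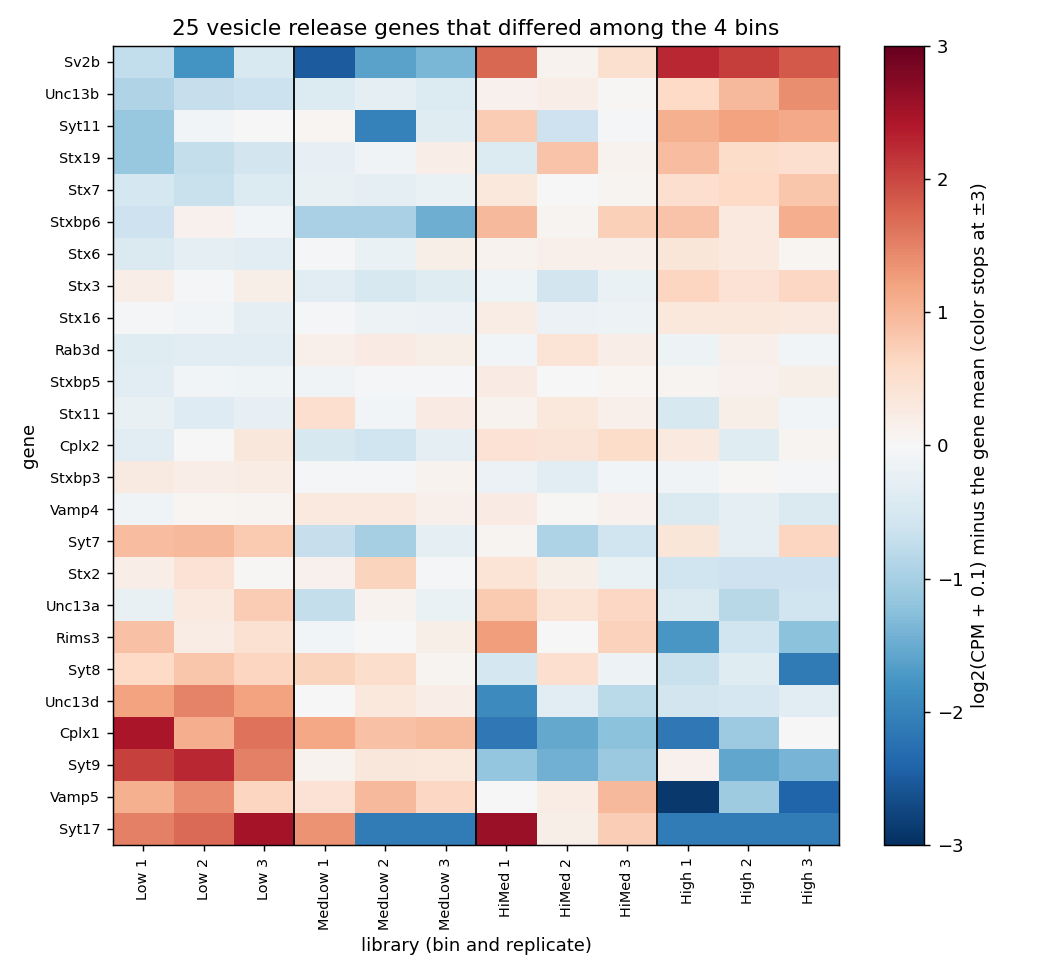
Of the 26 genes that differed among the 4 bins, 25 are drawn, 1 row a gene and 1 column a library, coloured by log2(CPM + 0.1) minus the gene's mean over the 12 libraries, with the scale stopped at 3 in either direction. Sv2b, Unc13b and Syt11 lie at the top with their largest values in the High libraries. Syt9, Vamp5 and Syt17 lie at the bottom, with every High library below every Low one.

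The Unc13 priming factors moved in opposite directions. Unc13b, called Munc13-2, stood at 16.5, 19.4 and 19.9 CPM in the Low libraries, then 23.6, 26.0 and 23.4 in MedLow, 33.9, 35.9 and 31.7 in HiMed and 47.0, 61.7 and 82.0 in High. No library of a brighter bin fell to the range of a dimmer one. Unc13b was higher in High than in Low by 1.77 on the log2 scale (SE 0.16, adjusted p = 4.1e-07) and higher in High than in HiMed by 0.91 (SE 0.16, adjusted p = 0.00064). Its steps between the dimmer bins did not pass the test, with log2 differences of 0.47 for HiMed over MedLow and 0.39 for MedLow over Low. On log2(TPM + 1) the step from HiMed lost its call (0.77, adjusted p = 0.0805).

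Unc13d, or Munc13-4, which primes the lytic granules of lymphocytes and other granules outside neurons, ran the other way. It stood at 33.8, 40.8 and 33.6 CPM in Low, then 14.6, 18 and 16.6 in MedLow, 3.81, 11.4 and 8.17 in HiMed and 9.90, 10.2 and 11.5 in High. Every Low library was above every other, and HiMed and High overlapped. The log2 difference was -1.77 for High against Low (SE 0.28, adjusted p = 0.00016), -1.08 for HiMed against MedLow (SE 0.28, adjusted p = 0.020) and -1.14 for MedLow against Low (SE 0.27, adjusted p = 0.025). The MedLow call was lost without any 1 of the 6 Low and MedLow libraries (adjusted p = 0.0573 to 0.111). The HiMed call was lost without MedLow replicate 2, MedLow replicate 3 or HiMed replicate 3 (adjusted p = 0.0541 to 0.0765) and on log2(TPM + 1), where the difference was -0.36. Several summed marker lists also had every Low library above every other. They were those of basal epithelium, neurons and Schwann cells, Von Ebner gland and fibroblasts, the last mostly Dcn. Lists whose Low libraries overlapped another bin, such as that of Type II cells, are not among them. The part of any of these cells in the Unc13d values was not tested.

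Unc13a, or Munc13-1, the main form at brain synapses, was largest in HiMed. It stood at 4.40, 6.37 and 8.77 CPM in Low, then 3.09, 5.54 and 4.5 in MedLow, 8.97, 6.89 and 7.91 in HiMed and 3.80, 2.87 and 3.35 in High. The High libraries lay under all of those of HiMed and of Low. High was lower than HiMed by a log2 difference of -1.25 (SE 0.30, adjusted p = 0.0076) and lower than Low by -0.96 (SE 0.30, adjusted p = 0.018). The difference from Low was lost without Low replicate 3 (-0.69, adjusted p = 0.122) or High replicate 2 (-0.86, adjusted p = 0.0629). In TPM neither call was made: the difference from HiMed was -0.69 and that from Low -0.12 on log2(TPM + 1). The ratio of count to TPM for Unc13a, which gives the transcript length that Salmon assigned, varied by 2.55 on the log2 scale over the libraries, more than in 99.5% of 12221 genes. Its exons also overlap Colgalt1 on the other strand. Unc13c averaged 1.95 ± 0.792 CPM in HiMed and 0.409 ± 0.355 in High and passed no test.

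Of the Rims, scaffolds of the release site that bind Rab3, 2 were tested. Rims3, a short form that lacks the Rab3-binding part, had 2.45, 1.53 and 1.82 CPM in Low, then 1.21, 1.31 and 1.47 in MedLow, 3.22, 1.29 and 2.15 in HiMed and 0.315, 0.816 and 0.498 in High. All High libraries were below all others. The log2 difference was -2.02 from HiMed (SE 0.58, adjusted p = 0.020) and -1.82 from Low (SE 0.58, adjusted p = 0.019). The first was lost without HiMed replicate 1, High replicate 1 or High replicate 3 (adjusted p = 0.0596 to 0.0664), and the second without Low replicate 1, High replicate 1 or High replicate 3 (adjusted p = 0.0535 to 0.0789). Rims2 averaged 0.213 ± 0.194 CPM in High and 1.38 ± 0.241 in Low and was not called (adjusted p = 0.061).

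Syntaxins, the SNAREs of the target membrane, were all 15 tested. In High against Low, 5 were higher and 1 lower, where 20% of all genes were higher and 21.2% lower. Stx7, a syntaxin of late endosomes and lysosomes, stood at 34.8, 31.5 and 37.6 CPM in Low, then 43.1, 41.6 and 43.9 in MedLow, 62.2, 50.4 and 52.9 in HiMed and 71.3, 75.7 and 88.8 in High. The 4 bins did not overlap at any step. Stx7 was higher in High than in Low by 1.18 (SE 0.11, adjusted p = 4.2e-07), in High than in HiMed by 0.51 (SE 0.11, adjusted p = 0.0027) and in HiMed than in MedLow by 0.37 on the log2 scale (SE 0.11, adjusted p = 0.034). The last call was lost on log2(TPM + 1) (adjusted p = 0.136) and without MedLow replicates 1, 2 or 3 or HiMed replicates 1 or 3 (adjusted p = 0.0616 to 0.144).

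Stx19, a syntaxin without a membrane-spanning segment, had 1.74, 2.38 and 2.67 CPM in Low, then 3.32, 3.65 and 4.58 in MedLow, 2.97, 7.25 and 4.29 in HiMed and 7.56, 5.86 and 5.64 in High. High lay above Low in every library, while HiMed spread over the range of its neighbours. The log2 difference of High from Low was 1.49 (SE 0.35, adjusted p = 0.0028). Stx3, the syntaxin of apical plasma membranes, averaged 23.8 ± 2.09, 16.7 ± 0.834, 18.1 ± 2.79 and 32.6 ± 2.66 CPM from Low to High, a course with its smallest values in the middle bins. High was higher than HiMed by 0.85 (SE 0.14, adjusted p = 0.00035) and than Low by 0.45 on the log2 scale (SE 0.14, adjusted p = 0.014), and MedLow was lower than Low, at -0.51 (SE 0.14, adjusted p = 0.034). The call of High against Low was lost without Low replicate 2 or High replicate 1 (adjusted p = 0.0606 and 0.050). That of MedLow was lost without Low replicates 1 or 3 or any MedLow library (adjusted p = 0.0865 to 0.141) and on log2(TPM + 1) (adjusted p = 0.187).

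Both syntaxins of the trans-Golgi network were higher in High than in Low: Stx6 averaged 70.2 ± 7.57 CPM in High and 46.3 ± 2.33 in Low (log2 difference 0.60, SE 0.10, adjusted p = 0.00024), and Stx16 averaged 60.7 ± 0.320 in High and 44.6 ± 3.89 in Low (0.45, SE 0.11, adjusted p = 0.0035). Stx16 was also higher in High than in HiMed, by 0.33 (adjusted p = 0.036). That call was lost without any 1 of 8 libraries, namely the 3 of MedLow, the 3 of High and HiMed replicates 2 and 3 (adjusted p = 0.0507 to 0.155), and on log2(TPM + 1) (adjusted p = 0.0854). Stx2, a plasma membrane syntaxin also known as epimorphin, had 4.32, 4.28 and 4.24 CPM in High, under all 9 other libraries. Its log2 difference was -0.86 from Low (SE 0.25, adjusted p = 0.011) and -0.77 from HiMed (SE 0.25, adjusted p = 0.035). Neither was called on log2(TPM + 1) (-0.58, adjusted p = 0.155, and -0.56, adjusted p = 0.239), and the one from HiMed was lost without HiMed replicates 1 or 2 or any High library (adjusted p = 0.0705 to 0.117). Stx11, known from lymphocyte granules, differed among the bins (adjusted p = 0.043), with 22.7 ± 1.32 CPM in Low and 32.9 ± 6.48 in MedLow, but passed no test between 2 bins.

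The remaining 8 syntaxins passed no test. The most abundant of them, Stx4a of the basolateral membrane, stood at 63.0, 59.6 and 51.5 CPM in Low, then 57.6, 56.9 and 60.3 in MedLow, 57.1, 62.0 and 54.7 in HiMed and 58.1, 54.1 and 51.8 in High. These libraries overlapped in all 4 bins, with a log2 difference of -0.09 for High against Low (SE 0.09). The neuronal Stx1a averaged 11.8 ± 1.01 CPM in High and 10.8 ± 1.45 in Low.

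**Figure D3:**
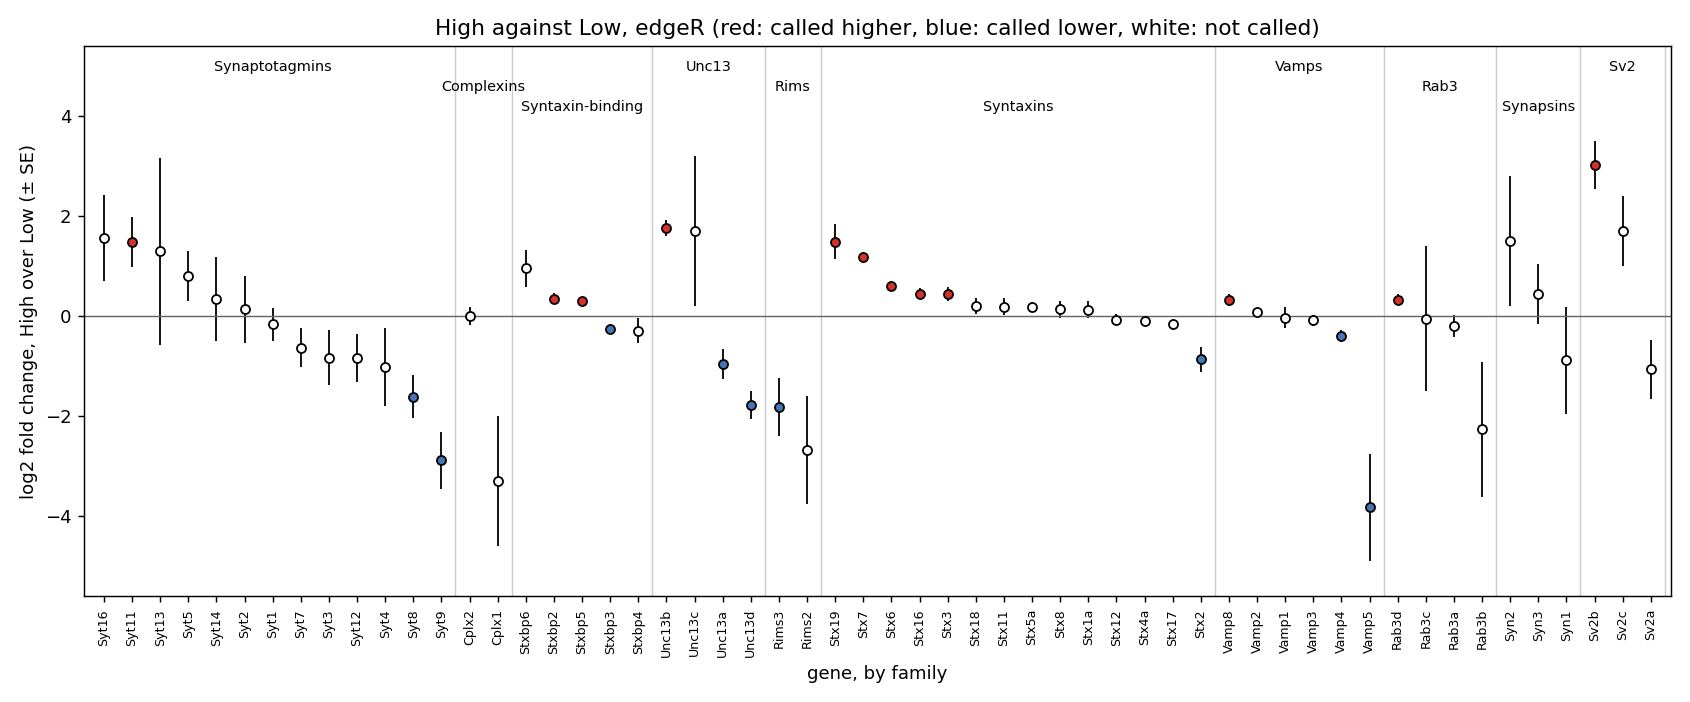
Log2 fold change of High over Low with its standard error for 56 of the 59 tested genes, by family and by size. Red points are called higher, blue points called lower and white points not called; Syt17, at 0 in all High libraries, is left out because its fitted value is no bound. Sv2b at 3.02 and Unc13b at 1.77 lead the higher genes, and Vamp5 at -3.82 and Syt9 at -2.88 the lower ones.

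Of the 6 tested Vamps, the SNAREs of the vesicle, 1 was higher and 2 were lower in High than in Low. The shares of all genes were 20% higher and 21.2% lower. Vamp8, which works in endosome fusion and in secretion of epithelial granules, had 48.2, 40.4 and 49.0 CPM in Low, then 50.4, 61.3 and 59.8 in MedLow, 47.5, 53.6 and 60.6 in HiMed and 52.1, 62.8 and 58.0 in High. High and Low did not overlap, and the log2 difference was 0.33 (SE 0.12, adjusted p = 0.035). It was lost without Low replicate 2, High replicate 2 or High replicate 3 (adjusted p = 0.0691 to 0.145). Vamp4, of the trans-Golgi network, had 15.4, 16.9 and 15.3 CPM in High, under all 9 other libraries, and averaged 22.9 ± 1.84 in HiMed and 21 ± 1.49 in Low. The log2 difference was -0.53 from HiMed (SE 0.12, adjusted p = 0.0051) and -0.40 from Low (SE 0.12, adjusted p = 0.015), the second lost without Low replicate 3 (adjusted p = 0.0588) and on log2(TPM + 1) (adjusted p = 0.167).

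Vamp5, known from muscle, was scarce, and scarcest in High. It had 1.44, 1.86 and 1.06 CPM in Low, then 0.900, 1.36 and 1.03 in MedLow, 0.631, 0.766 and 1.36 in HiMed and 0, 0.254 and 0.0399 in High. All High libraries were below all others. The log2 difference was -3.82 from Low (SE 1.07, adjusted p = 0.0094) and -3.17 from HiMed (SE 1.04, adjusted p = 0.041), the second of which was lost without any 1 library other than HiMed replicate 1 and High replicate 2 (adjusted p = 0.0559 to 0.123). Without High replicate 2 the differences were -5.94 from Low and -5.29 from HiMed. Vamp2, the SNARE of synaptic vesicles, averaged 71.0 ± 8.14 CPM in High and 67.3 ± 3.08 in Low, and with Vamp1 and Vamp3 passed no test.

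Among the 6 tested syntaxin-binding proteins, 3 were higher and 1 lower in High than in Low, against 20% and 21.2% of all genes. Stxbp2, or Munc18-2, the partner of Stx3 and Stx11, had 95.7, 88.1 and 86.6 CPM in Low, then 94.5, 105 and 91.9 in MedLow, 96.7, 109 and 105 in HiMed and 93.1, 123 and 129 in High. High replicate 1 lay within the Low range. The log2 difference of High from Low was 0.35 (SE 0.11, adjusted p = 0.015), lost without Low replicate 3, High replicate 2 or High replicate 3 (adjusted p = 0.0584 to 0.0799) and with only the 2 bins fitted (adjusted p = 0.0526).

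Stxbp6, or amisyn, which binds syntaxins in place of a Vamp, had 1.81, 3.15 and 2.72 CPM in Low, then 1.41, 1.4 and 0.974 in MedLow, 5.68, 3.06 and 4.78 in HiMed and 5.22, 3.50 and 6.16 in High. MedLow was the lowest bin in every library. HiMed was higher than MedLow by 1.83 on the log2 scale (SE 0.38, adjusted p = 0.0045), and High against Low did not pass (0.96, adjusted p = 0.052). On log2(TPM + 1) the step from MedLow was 0.67 and lost its call (adjusted p = 0.317). Stxbp5, or tomosyn, an inhibitor of SNARE assembly, averaged 79.3 ± 2.59 CPM in High and 64.2 ± 5.62 in Low (0.30, SE 0.09, adjusted p = 0.010), a call lost without Low replicate 1 (adjusted p = 0.0659). Stxbp3, or Munc18c, the partner of Stx4, averaged 37.5 ± 2.11 CPM in High and 44.7 ± 1.15 in Low (-0.25, SE 0.10, adjusted p = 0.044). Its direction was not stable: on log2(TPM + 1) High was above Low by 0.22 (adjusted p = 0.215), where the median over all genes was 0.179. Stxbp3 also lost its call without any 1 of 8 libraries, all of Low and MedLow and High replicates 1 and 3 (adjusted p = 0.0534 to 0.135).

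Synaptotagmins, the calcium sensors and their relatives, gave 14 tested genes. Of them, 1 was higher and 3 were lower in High than in Low, against 20% and 21.2% of all genes. Syt9, a fast calcium sensor of a subset of neurons and of endocrine granules, had 5.32, 6.25 and 3.63 CPM in Low, then 1.31, 1.57 and 1.55 in MedLow, 0.491, 0.383 and 0.507 in HiMed and 1.33, 0.345 and 0.399 in High. Low lay above every other library, and HiMed below every MedLow one. The log2 difference of High from Low was -2.88 (SE 0.57, adjusted p = 0.00078), and -3.76 without High replicate 1. Syt8 had 5.30, 6.21 and 5.45 CPM in Low, then 5.55, 5.06 and 3.66 in MedLow, 2.38, 4.95 and 3.13 in HiMed and 2.16, 2.68 and 0.717 in High. Its mean shrank at each step, neighbouring bins overlapped, and High lay wholly below Low (-1.61, SE 0.43, adjusted p = 0.0071). On log2(TPM + 1) the difference was -0.90 and narrowly lost its call (adjusted p = 0.0525).

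Syt11, which does not bind calcium, had 1.58, 3.39 and 3.63 CPM in Low, then 3.73, 0.799 and 2.74 in MedLow, 6.17, 2.27 and 3.51 in HiMed and 7.61, 8.38 and 7.96 in High. High lay above all 9 other libraries, and the other bins overlapped. Syt11 was higher in High than in Low by 1.48 (SE 0.50, adjusted p = 0.028), lost without Low replicate 1 (1.18, adjusted p = 0.108) or without any 1 of the High libraries (adjusted p = 0.0519 to 0.0603). Syt7, the slow, high-affinity sensor, had 5.30, 5.49 and 4.80 CPM in Low, then 1.67, 1.33 and 2.24 in MedLow, 2.92, 1.39 and 1.77 in HiMed and 3.53, 2.21 and 4.32 in High. Low lay above all others. MedLow was lower than Low by -1.57 on the log2 scale (SE 0.40, adjusted p = 0.027), lost without any 1 of the Low and MedLow libraries (adjusted p = 0.0502 to 0.121), and High against Low was not called (-0.63, adjusted p = 0.22). Exons of Syt7 overlap Gm26859 on the other strand.

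Syt17 was at 0 in all 3 High libraries, against 1.13, 1.29 and 2.34 CPM in Low and 2.48, 0.383 and 0.616 in HiMed. MedLow had 1.00, 0 and 0. With 3 counts over the 3 High libraries taken as the floor, Syt17 was at least 80.2-fold lower in High than in Low (adjusted p = 0.0075) and at least 57.1-fold lower than in HiMed (adjusted p = 0.018), the second call lost without High replicate 1 or 3 (adjusted p = 0.0522 and 0.0561). The bound against Low was 59.4-fold without Low replicate 3. The bound against HiMed was 26.1-fold without HiMed replicate 1, which held 106 of the 154 HiMed counts. With a High library left out, which by itself raises the floor in CPM, the bounds were 50.7 to 56.4-fold against Low and 36.1 to 40.2-fold against HiMed. The sensors of fast synaptic release passed no test: Syt1 averaged 5.08 ± 1.04 CPM in High and 5.68 ± 1.84 in Low, and Syt2 2.37 ± 1.22 in High and 2.15 ± 1.03 in Low. Standard errors of these log2 differences were 0.33 for Syt1 and 0.67 for Syt2.

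Complexins were represented by Cplx2, which had 29.4, 36.6 and 47.2 CPM in Low, then 26.5, 24.3 and 30.9 in MedLow, 49.8, 48.5 and 54.6 in HiMed and 45.7, 28.7 and 39.0 in High. HiMed lay above all 9 other libraries. HiMed was higher than MedLow by 0.91 on the log2 scale (SE 0.18, adjusted p = 0.0040), a call made under every alternative run. High against HiMed was not called (-0.43, adjusted p = 0.10). Cplx1 differed among the bins (adjusted p = 0.028), at 1.49 ± 0.777 CPM in Low, then 0.796 ± 0.0916 in MedLow, 0.0484 ± 0.0456 in HiMed and 0.149 ± 0.173 in High, and passed no test between 2 bins.

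On the vesicle itself, Sv2b had 1.53, 0.686 and 1.89 CPM in Low, then 0.386, 0.799 and 0.948 in MedLow, 8.88, 2.82 and 3.69 in HiMed and 12.9, 11.3 and 9.60 in High. Sv2 proteins are transporter-like glycoproteins of synaptic and endocrine vesicles. High and HiMed lay above both dimmer bins in every library, and HiMed replicate 1 stood well above the other HiMed libraries. The log2 difference was 3.02 for High against Low (SE 0.48, adjusted p = 0.00011) and 2.85 for HiMed against MedLow (SE 0.49, adjusted p = 0.0011). Without HiMed replicate 1 the second was 2.19 and still called. It lost its call on log2(TPM + 1) (0.89, adjusted p = 0.0981). Exons of Sv2b overlap 1500012K07Rik on the other strand.

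Sv2a had 1.01, 0.816 and 0.279 CPM in High, against 2.92, 3.04 and 2.03 in HiMed (log2 difference -1.92, SE 0.59, adjusted p = 0.030), a call lost without HiMed replicates 1 or 2 or High replicates 2 or 3 (adjusted p = 0.0521 to 0.103). Sv2c averaged 4.57 ± 1.04 CPM in High and 1.39 ± 1.00 in Low, without overlap, and was not called (adjusted p = 0.066). Synapsins, which tether vesicles to actin, passed no test. The most abundant, Syn3, had 1.93, 1.45 and 2.88 CPM in Low, then 3.19, 0.484 and 1.79 in MedLow, 3.55, 2.41 and 3.30 in HiMed and 4.1, 1.16 and 3.29 in High, all overlapping.

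Rab3d, the Rab3 of secretory granules in exocrine glands, was the only member of its family called. It stood at 105, 107 and 106 CPM in Low, then 150, 160 and 152 in MedLow, 128, 178 and 155 in HiMed and 122, 151 and 128 in High. Low lay below all 9 other libraries, and the other 3 bins overlapped. MedLow was higher than Low by 0.54 on the log2 scale (SE 0.11, adjusted p = 0.0051), a call made under every alternative run. High was higher than Low by 0.33 (SE 0.11, adjusted p = 0.019), lost without Low replicate 1, Low replicate 3 or High replicate 2 (adjusted p = 0.0505 to 0.0983). The summed Von Ebner gland markers were at 145 to 247 CPM in MedLow and 774 to 2475 in Low. The summed suprabasal keratins ran the other way, at 23992 to 24204 CPM in MedLow and 6686 to 7398 in Low, with 1150 to 1820 in High. The step from Low to MedLow was not tested for either list. The part of these cells in the Rab3d values was not tested. Rab3a, the main Rab3 of brain synapses, averaged 9.17 ± 1.57 CPM in High and 10.5 ± 2.33 in Low and passed no test.

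**Figure D4:**
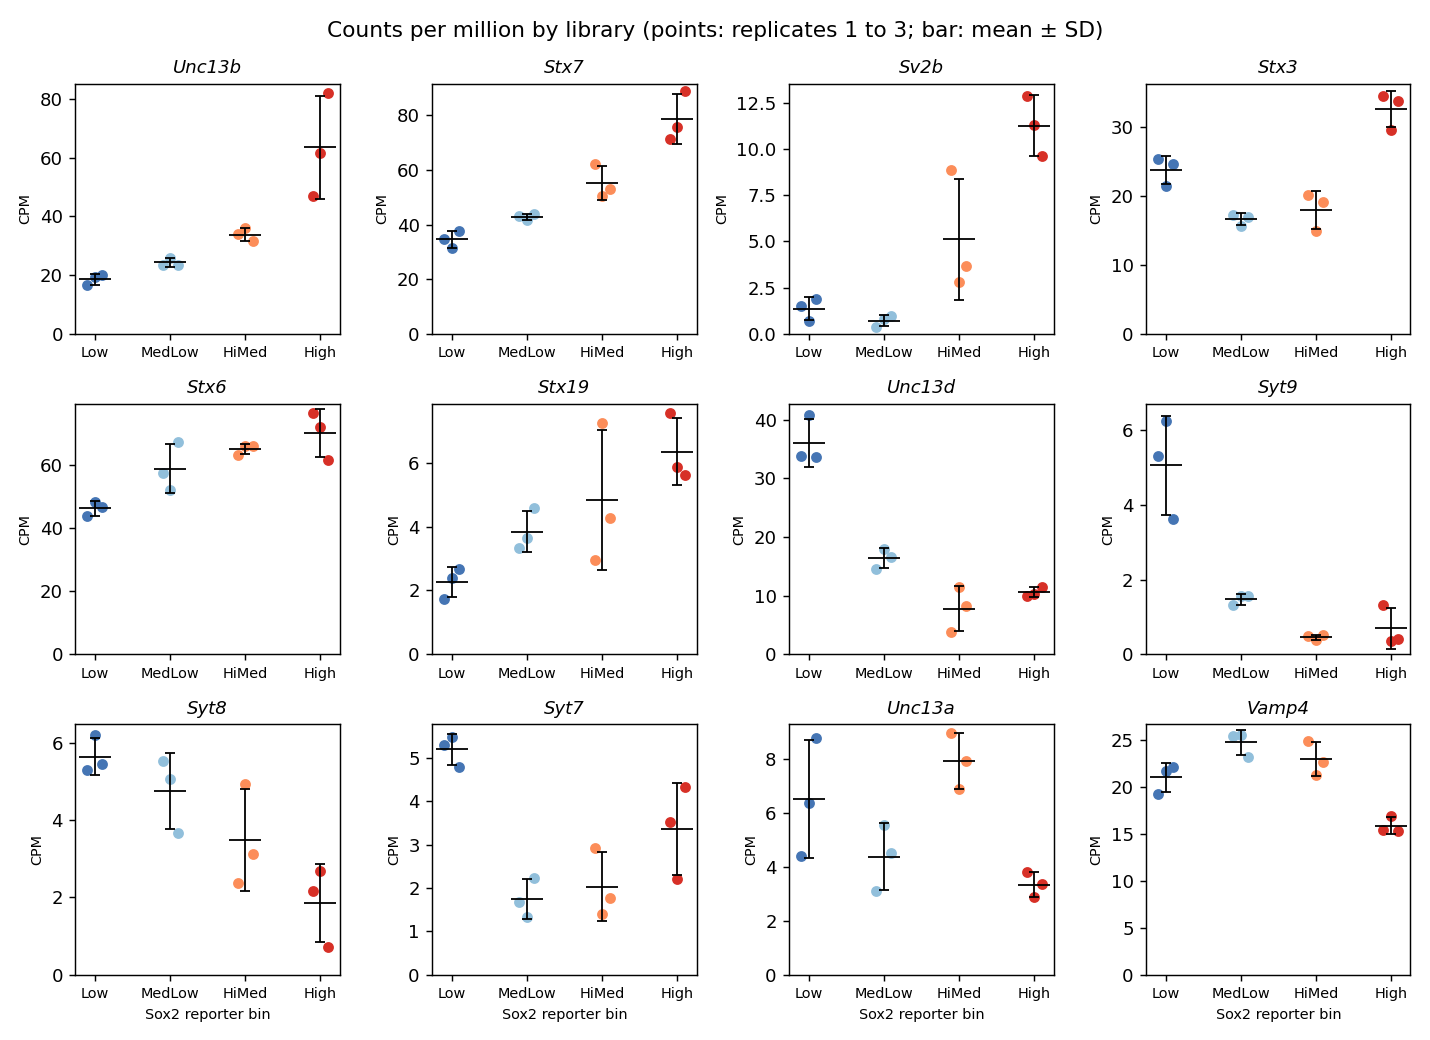
CPM of 12 vesicle genes in each library, with 1 panel a gene, bins from Low to High on the horizontal axis, points for the 3 libraries and a bar for mean and SD. Unc13b and Stx7 climb over all 4 bins, Stx3 and Syt7 are smallest in the middle bins, and Unc13d and Syt9 are largest in Low. The 12 genes were picked after their values were seen.

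Most steps between neighbouring bins touched few members. High against HiMed gave 11 calls among the 59 (18.6%, against 22.3% of all genes), 4 higher (6.78%, against 10.6%) and 7 lower (11.9%, against 11.7%). The higher ones were Stx3, Stx7, Stx16 and Unc13b, and the lower ones Rims3, Stx2, Sv2a, Syt17, Unc13a, Vamp4 and Vamp5. Without High replicate 3 the count was 5. HiMed against MedLow gave 6 calls (10.2%, against 13.6%). The 5 higher ones (8.47%, against 7.33%) included Cplx2, Stx7, Stxbp6 and Sv2b, and Unc13d was lower (1.69%, against 6.3%), and there were 3 calls without MedLow replicate 2 or HiMed replicate 3. MedLow against Low gave 4 (6.78%, against 6.47%), with Rab3d higher (1.69%, against 3.96%) and Stx3, Syt7 and Unc13d lower (5.08%, against 2.5%). That count was 1 or 2 without any 1 of Low replicates 1, 2 or 3 or MedLow replicates 1 or 3. In total 27 members were called in at least 1 of these 4 comparisons, which share libraries with one another, and 30 in none of the 5 tests.

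Other genes of vesicle release and recycling, 75 symbols listed with earlier results known, gave 67 tested genes. Of these, 22 were called in High against Low (32.8%, against 41.2% of all genes). Of the 67, 16 were higher and 6 lower, where 20% of all genes were higher and 21.2% lower. Cadps and Cadps2, which prime dense-core vesicles, averaged 115 ± 32.5 and 128 ± 8.2 CPM in High and 1.59 ± 0.836 and 23.3 ± 4.37 in Low. Their log2 differences were 6.12 (SE 0.47) and 2.46 (SE 0.21). Pclo, the active zone scaffold piccolo, averaged 50.8 ± 11.8 CPM in High and 14 ± 3.19 in Low (1.86, SE 0.27), and Rab27b, a Rab of secretory granules, 85.5 ± 12.6 in High and 35.9 ± 6.18 in Low (1.25, SE 0.16). Snap25, the SNARE partner of Stx1a and Vamp2 and a marker of Type III cells, fell to 1.98 ± 0.849 CPM in High, against 9.70 ± 3.25 in Low (-2.29, SE 0.34, adjusted p = 5.3e-05). Chgb, a granule protein of neuroendocrine cells, averaged 0.5 ± 0.0883 CPM in High and 3.96 ± 0.878 in Low (-2.98, SE 0.53, adjusted p = 0.00031). Snap25 is also 1 of the 4 neuron and Schwann cell markers called lower above. Its neighbours in function, Stx1a and Vamp2, passed no test.

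In the steps between neighbouring bins, 10 of these 67 genes were called in High against HiMed (14.9%, against 22.3% of all genes). They were 5 higher and 5 lower, where 10.6% of all genes were higher and 11.7% lower. Cadps averaged 115 ± 32.5 CPM in High and 7.60 ± 1.93 in HiMed (3.92, SE 0.41), whereas Cadps2 averaged 128 ± 8.2 in High and 131 ± 30.9 in HiMed and was not called. HiMed against MedLow gave 9 calls (13.4%, against 13.6% of all genes), all higher (7.33% of all genes were), among them Cadps2 at 131 ± 30.9 CPM in HiMed and 24.3 ± 5.82 in MedLow (2.43, SE 0.21) and Rab27a, which docks granules, at 24.8 ± 0.832 in HiMed and 14.1 ± 2.07 in MedLow (0.82, SE 0.15). MedLow against Low gave 4 (5.97%, against 6.47%), with Rab27a, Rab27b and Ppfia3 higher and Sytl2 lower. Of all genes, 3.96% were higher and 2.5% lower.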

How the data were processed

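Messenger RNA was sequenced from 12 libraries, 3 in each of 4 bins of reporter brightness. The submitters' processing notes name Salmon 1.4.0, DESeq2 1.28.1 and build mm39, with no role stated for each. Annotation and strand setting: not given in the sources used here. In their deposited form, the expected counts are estimated counts per gene symbol, and 8.24 to 13.0% of a library's values were not whole. The authors' deposited TPM values served to compare levels between genes and as an alternative test.

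Expected counts were rounded, and edgeR 4.0.16 (R 4.3.3) was run with filterByExpr with a minimum count of 10, TMM scaling, a quasi-likelihood fit with 1 term per bin over all 12 libraries, and Benjamini-Hochberg adjustment over 17432 genes, with a call at an adjusted p below 0.05. The biological coefficient of variation common to all genes was 0.366. Each standard error is the value that the F statistic implies. The 35238 symbols not tested held 0.0340% of counts. CPM values are TMM-scaled. A gene at 0 in a bin was set against 3 counts over its 3 libraries (0.0200 CPM in High), and such floors cover counting error only. Fits were tested on simulated data. Libraries of a bin differed by more than counting noise (chi-square per degree of freedom 26.6 to 91.7), so none is a copy.

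The members and all lists were chosen with earlier results of these data known. The design written for the tests did not say whether the moderation of the spread should be robust. The first fit was not robust, and its counts of members had been seen. Then 4 combinations of robust moderation and library sizes before or after the filter were compared by the number of genes called in High against Low, and robust moderation was taken because its count, 7182, was that of an earlier processing of these files; without it the count was 7214. Members called in High against Low were 23 either way, and members differing among the 4 bins were 26 with it and 24 without it. The 4 promoter motifs and the comparison of count with TPM were also chosen after values were seen, and the set of promoters printed was changed after the motif counts were known. Unc13d had been chosen first and has no entry in the table.

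Genes given library by library were those that differed among the bins, with a largest bin mean of at least 2 CPM and at least 2 times the smallest, and the most abundant of each family. Genes named with a fold change were up to 10 called per direction and comparison with at least 1 CPM in the higher bin. Outside this rule, and named after their values were seen, are the library values of Vamp4, Vamp5, Stx2, Syt17 and Sv2a, the fold changes of Stxbp5 in High against Low and of Vamp5 in High against HiMed, and members given by value only. Results for some members are not reported here. Exon overlaps come from GENCODE M21 and promoters from RefSeq, both on GRCm38.p6, another build than the files name. Alternatives were RLE size factors, library size alone, other filters, DESeq2 1.42.0, a replicate block, limma 3.58.1 on log2(TPM + 1) and log2(TPM + 0.1), fits of only 2 bins and leaving out each library.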

Additional observations from a re-analysis of the deposited data

How the results depend on the processing

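Of 44 gene results called, 14 kept their call under every alternative that gave a value, and 30 lost it under at least 1, of which 22 when a library was left out. With only the 2 bins fitted, calls were lost for Stxbp2 and Vamp8 (High against Low), Rims3, Stx2, Stx16, Sv2a and Vamp5 (High against HiMed) and Unc13d (HiMed against MedLow), among others, at adjusted p = 0.0526 to 0.208. Without the filter on counts, Rims3 and Stxbp3 (High against Low) and Stx2 and Sv2a (High against HiMed) were lost, at 0.0505 to 0.107, and with library size alone Stxbp3 was lost, at 0.16. Besides the calls given above as lost on TPM, Syt11 (High against Low) and Unc13d (MedLow against Low) were lost on log2(TPM + 0.1), at 0.0653 and 0.0575, and Syt9, Syt17 and Rims3 (High against Low) and Rims3, Sv2a and Syt17 (High against HiMed) on unfiltered log2(TPM + 1), at 0.0581 to 0.28. None lost its call under DESeq2 or under the replicate block. Stxbp3 in High against Low reversed, from a log2 difference of -0.25 to 0.22 on log2(TPM + 1), 0.23 on log2(TPM + 0.1) and 0.22 on log2(TPM + 1) without a filter. On TPM the median of all genes in High against Low moved to 0.179 and 0.192, from -0.007 on counts, and in High against HiMed to 0.108 with the smaller pseudocount.

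Members called in High against HiMed were 11, and 7, 6 and 6 on log2(TPM + 1), log2(TPM + 0.1) and unfiltered log2(TPM + 1), and 6 with only these 2 bins fitted. In HiMed against MedLow they were 6, and 10 with DESeq2, and 1, 1 and 2 on the 3 TPM scales. In MedLow against Low they were 4, and 2 on log2(TPM + 0.1), 2 on unfiltered log2(TPM + 1) and 7 with only these 2 bins fitted. Those differing among the 4 bins were 26, and 17 on unfiltered log2(TPM + 1). The cause was not tested: 43 members passed the TPM filter, but 63 were tested without it. Leaving out each library in turn gave 19 to 25 calls in High against Low, 5 to 10 in High against HiMed, 3 to 9 in HiMed against MedLow, 1 to 6 in MedLow against Low and 18 to 25 among the 4 bins.

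Replicate numbers 1 to 3 recur in every bin. Over 11094 genes, each library's departures from its bin's mean were correlated between bins: 18 pairs sharing a number gave 0.0653 to 0.294 (17 exceeded 0.1), and 36 pairs with unlike numbers gave -0.217 to 0.0139. All 12 libraries correlated best with their own number, which is a hint from the data and not the design. With the replicate block, 24, 11, 7 and 4 members were called in the 4 comparisons in the order above, and 26 among the 4 bins. Without robust moderation, an alternative added after seeing the data, 24 differed among the 4 bins. Depth limits members under about 1 CPM, whose standard errors often pass 1 on the log2 scale.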

Other observations

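For a few members the deposited counts and TPM differed in course. The ratio of count to TPM, relative to its mean over the 12 libraries and to the median gene of each library, ranged over 2.91 on the log2 scale for Syt12, 2.55 for Unc13a, 2.26 for Unc13d and 1.88 for Stxbp6, against a median range of 0.36 over 12221 genes with at least 20 counts in every library. For Syt12 and Unc13d the smallest ratio was in HiMed replicate 1. Sv2a averaged 2.66 CPM in HiMed but 4.20 TPM, since HiMed replicate 1 had 10.7 TPM and the other HiMed libraries 1.12 and 0.775. These values were looked at after the counts and TPM were seen to differ.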
